A study of Mus musculus with 8 samples.

Results

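The genes described here are 10 CC chemokine ligands that macrophages are known to make, Ccl2, Ccl3, Ccl4, Ccl6, Ccl7, Ccl8, Ccl9, Ccl12, Ccl22 and Ccl24. They were taken by gene symbol and Entrez identifier, without a cut on their values, out of 18125 genes listed in at least 1 of the 8 libraries. The list was chosen with earlier results of these data known. All 10 were listed. RNA from 8 cultures of mouse macrophages was sequenced, with 1 library per group. The KO libraries came from Slc6a8-/y mice, which lack the X-linked transporter that brings creatine into cells, and the WT libraries from wild-type mice, both on a C57BL/6 background. The series asks how creatine bears on macrophage polarization.

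The peritoneal macrophages were collected 3 to 4 days after an injection of 1 ml of 4% thioglycollate, an irritant that draws cells into the peritoneal cavity. They gave a KO and a WT library stimulated for 12 hours with 10 ng/mL of IFN-gamma, and a KO and a WT library left untreated. The bone marrow-derived macrophages were grown from marrow for 5 days with 10% M-CSF. They gave a KO and a WT library stimulated for 6 hours with 10 ng/mL of IL-4, and a KO and a WT library left untreated. The labels leave unsaid if 1 animal or several, pooled or not, gave the libraries of a genotype, and the knockout is that of the whole animal rather than of macrophages alone. The cytokine, its duration and the cell type change together, so that IFN-gamma and IL-4 cannot be compared with each other here.

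CC chemokines are small secreted proteins that attract leukocytes through G protein-coupled receptors. Ccl2, Ccl7 and Ccl12 act on CCR2 and draw monocytes out of the marrow and into inflamed tissue. Ccl3, Ccl4, Ccl6 and Ccl9 belong to the inflammatory group of which Ccl6 and Ccl9 act mainly on CCR1, Ccl8 acts on CCR8 in the mouse, Ccl22 on CCR4 of T cells, and Ccl24 on CCR3 of eosinophils. IFN-gamma is the classical activator of macrophages of host defence, while IL-4 signals through STAT6 and drives alternative activation, of which Ccl22 and Ccl24 are known products.

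In the RefSeq annotation of GRCm38.p6, 8 of the 10 genes lie in 2 clusters of chromosome 11. The first cluster runs from Ccl2 (chr11:82035577-82037452) through Ccl7, Ccl11 and Ccl12 to Ccl8 (chr11:82115185-82116799). The second begins 1490.2 kb from the start of Ccl2 with Ccl5, and goes on with Ccl9 (chr11:83572917-83578636), Ccl6 (chr11:83587886-83593087), Ccl3 and Ccl4. Ccl22 lies on chromosome 8 (chr8:94745684-94751388) and Ccl24 on chromosome 5 (chr5:135569935-135573123). RefSeq promoter windows of 300 bases around the gene's start matched 6 of the 10 genes, Ccl3, Ccl6, Ccl8, Ccl9, Ccl12 and Ccl22, and Ccl2, Ccl4, Ccl7 and Ccl24 had no entry. The windows of 2 neighbouring pairs are shown, since members of the same cluster moved together or apart in the results. They were read from the gene's strand, 5′ to 3′, and the capitals mark runs of at least 8 identical bases in an alignment of the pair. The windows are chr11:82101595-82101894 for Ccl12 and chr11:82114935-82115234 for Ccl8, both on the plus strand, and chr11:83578587-83578886 for Ccl9 and chr11:83593038-83593337 for Ccl6, both on the minus strand.
Ccl12: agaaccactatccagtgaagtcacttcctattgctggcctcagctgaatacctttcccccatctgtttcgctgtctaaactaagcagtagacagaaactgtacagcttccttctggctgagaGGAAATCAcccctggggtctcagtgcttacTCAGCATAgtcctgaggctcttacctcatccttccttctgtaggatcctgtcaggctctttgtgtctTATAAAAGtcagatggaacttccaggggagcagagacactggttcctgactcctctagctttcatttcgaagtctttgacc
Ccl8: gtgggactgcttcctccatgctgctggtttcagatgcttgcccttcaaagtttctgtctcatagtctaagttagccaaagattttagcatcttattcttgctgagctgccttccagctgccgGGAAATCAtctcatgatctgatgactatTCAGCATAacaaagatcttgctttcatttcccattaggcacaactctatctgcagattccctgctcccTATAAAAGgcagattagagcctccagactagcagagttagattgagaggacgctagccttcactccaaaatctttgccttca
Ccl9: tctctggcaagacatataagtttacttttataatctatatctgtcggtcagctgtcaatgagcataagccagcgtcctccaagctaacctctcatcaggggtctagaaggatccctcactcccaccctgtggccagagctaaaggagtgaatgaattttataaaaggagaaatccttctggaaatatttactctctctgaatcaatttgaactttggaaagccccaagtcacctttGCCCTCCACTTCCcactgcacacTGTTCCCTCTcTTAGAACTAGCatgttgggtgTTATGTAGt
Ccl6: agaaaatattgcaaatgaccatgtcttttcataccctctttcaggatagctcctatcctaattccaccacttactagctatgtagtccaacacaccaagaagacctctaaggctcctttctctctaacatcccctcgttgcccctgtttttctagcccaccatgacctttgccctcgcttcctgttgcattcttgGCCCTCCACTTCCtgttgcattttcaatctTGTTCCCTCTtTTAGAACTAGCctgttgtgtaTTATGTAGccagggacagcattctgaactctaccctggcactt

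Ccl12 and Ccl8 shared 3 such runs with 24 bases in all, each run at the minimum of 8 bases. Of these runs 1 holds TATAAA, at 31 to 26 bases before the start of Ccl12 and 32 to 27 bases before that of Ccl8. Ccl9 and Ccl6 shared 4 runs with 42 bases in all, the longest of 13 bases. Most of these runs lie after the start in Ccl9 and before it in Ccl6, so their distances from the start differ. No other pair of the 6 windows had more than 1 run. Over all aligned bases Ccl12 and Ccl8 were 65.5% identical, no more than Ccl3 and Ccl12 (65.7%) or Ccl6 and Ccl12 (65.5%). Ccl9 and Ccl6 were 70.7% identical, and the median of the 15 pairs was 63.9%. On the given strand TATAAA stood in 3 of the 6 windows, the third being that of Ccl9 at 92 to 87 bases before the start, and in 8.32% of 32851 RefSeq windows. None of the 6 windows held the STAT6 site, TTC and GAA with 4 free bases between them (6.95% of all windows), the core of the interferon-stimulated response element, which interferon regulatory factors bind (3.44%), or an exact form of the NF-kB site (0.411%), each searched on both strands. These motifs were chosen with the results known, and the matches describe letters in these windows only.

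Between 10812678 and 11065427 expected counts were assigned to genes in the peritoneal libraries, and between 20553654 and 21221526 in those from bone marrow. Slc6a8 was at 0.18 FPKM in the KO IFN-gamma library and 0.73 in the KO untreated library, against 39.52 in the WT IFN-gamma and 163.54 in the WT untreated library of peritoneal macrophages. In bone marrow-derived macrophages it was at 1.15 and 1.71 FPKM in the KO libraries with and without IL-4, against 87.92 and 97.34 FPKM in the WT libraries. FPKM counts fragments per kilobase of transcript, scaled to the total of the library, so it sets genes of different length on 1 scale. All 7 macrophage markers were above 1 FPKM in every library, and Cd68 stood between 1549.03 and 2625.67 FPKM. Markers of neutrophils summed to 3.38 to 9.83 FPKM over 7 genes, and the eosinophil and mast cell genes Epx, Prg2, Ear6 and Mcpt4, 4 of a list of 8, were at 0 in all peritoneal libraries. Of the other 4, Siglecf was at 9.85 FPKM in KO IFN-gamma, 6.1 in WT IFN-gamma, 7.03 in KO untreated and 5.22 in WT untreated peritoneal cells, and Il5ra, Cpa3 and Fcer1a stayed under 1 FPKM there. Summed over its list, each library held 0.6 to 11.03 FPKM of eosinophil and mast cell markers, 0.82 to 5.75 FPKM of B cell markers and 0.57 to 3.13 FPKM of T and NK cell markers. Markers of fibroblasts and mesothelium stood higher, at 89.86 to 135.88 FPKM over 8 genes in peritoneal and 172.38 to 376.05 FPKM in bone marrow-derived libraries. The part of such cells in the ligand levels was not tested. In such bulk libraries, fewer cells of a type and less RNA per cell cannot be told apart.

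The 2 cell types were each led by a different member of the second cluster. Ccl6 had the highest FPKM of the 10 genes in all 4 peritoneal libraries, at 152.39 in KO IFN-gamma, 283.84 in WT IFN-gamma, 127.62 in KO untreated and 288.68 in WT untreated. It made up 41.0%, 68.0%, 52.5% and 68.9% of the 10 genes' summed FPKM in that order. In all 4 bone marrow-derived libraries the leading gene was Ccl9, at 113.75 FPKM in KO IL-4, 120.35 in WT IL-4, 89.42 in KO untreated and 101.11 in WT untreated. Its share of the sum was 37.8%, 36.1%, 34.6% and 34.3%, and Ccl6 came second each time. The summed FPKM of the 10 genes was 371.35 in KO IFN-gamma, 417.62 in WT IFN-gamma, 243.29 in KO untreated and 418.76 in WT untreated peritoneal macrophages. In bone marrow-derived macrophages it was 301.2 in KO IL-4, 333.44 in WT IL-4, 258.54 in KO untreated and 294.88 in WT untreated cells, a narrower range. Ccl24 was the lowest member in stimulated peritoneal cells, with 6 counts in KO IFN-gamma and 2 counts in WT IFN-gamma.

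**Figure D1:**
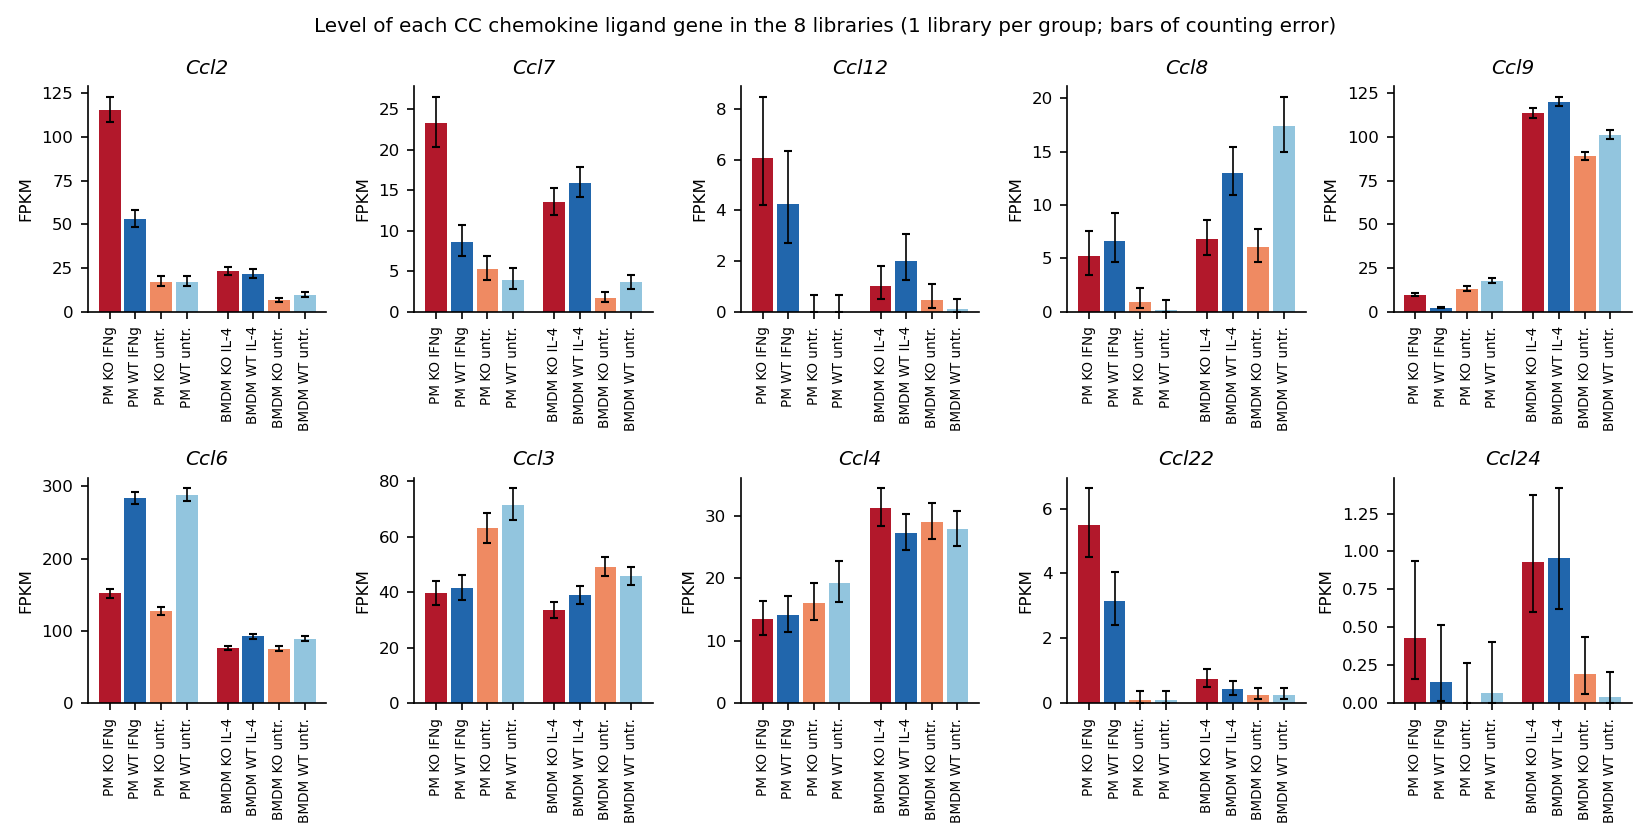
FPKM (vertical axes, linear from 0) of each of the 10 genes in the 8 libraries, 1 bar per library, with peritoneal (PM) libraries at the left of each panel and bone marrow-derived (BMDM) libraries at the right; error bars are 95% Poisson intervals of the expected count and cover counting error only. Ccl2 and Ccl7 stand highest in KO IFN-gamma peritoneal cells (115.65 and 23.32 FPKM), Ccl6 is lower in KO than in WT peritoneal cells with and without IFN-gamma, and Ccl9 is far higher in bone marrow-derived cells.

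The first question is what IFN-gamma did to the ligand genes of peritoneal macrophages. An additive fit of all genes, with terms for stimulus and genotype, set the 2 stimulated libraries against the 2 untreated ones. By edgeR's quasi-likelihood test with Benjamini-Hochberg adjustment over all genes, 5 of the 9 members with enough counts to test rose and 1 fell, where 17.2% of all 12052 genes rose and 14.9% fell. The members' median log2 change was 1.82, against -0.012 for all genes tested. A gene's own spread between these libraries has 1 residual degree of freedom. edgeR draws it toward the spread of all genes, so the p-values rest largely on that shared spread. Any unequal response of the genotypes adds to a gene's own spread. DESeq2 called 4 of the 9 higher, Ccl2, Ccl7, Ccl8 and Ccl22, and none lower. Of all 12758 genes it called 1251 higher and 837 lower.

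Among the monocyte attractants of the first cluster, Ccl2 had 115.65 FPKM in KO IFN-gamma and 53.11 in WT IFN-gamma cells, against 17.18 in KO untreated and 17.25 in WT untreated cells. Both stimulated libraries were above both untreated ones, and the log2 change was 2.30 (SE 0.28, edgeR adjusted p = 0.00193). Its neighbour Ccl7, another CCR2 ligand, had 23.32 FPKM in KO IFN-gamma and 8.63 in WT IFN-gamma cells, against 5.24 in KO untreated and 3.95 in WT untreated cells. The groups again did not overlap, and the log2 change was 1.82 (SE 0.28, edgeR adjusted p = 0.00508). Ccl12, the third CCR2 ligand, had 34 counts (6.08 FPKM) in KO IFN-gamma and 24 counts (4.26 FPKM) in WT IFN-gamma cells, and no count in either untreated library. Set against the 3 counts per library that a count of 0 allows, it was 11.3-fold higher in KO and 7.82-fold in WT cells. The counting intervals, which also cover the error of the stimulated counts, began at 8.69-fold in KO and 5.88-fold in WT cells. They cover counting error only. edgeR's adjusted p for Ccl12 was 0.00263 and DESeq2's was 0.266. Ccl8, at the far end of the cluster, had 28 counts (5.22 FPKM) in KO IFN-gamma and 36 counts (6.66 FPKM) in WT IFN-gamma cells, against 5 counts (0.94 FPKM) in KO untreated and 1 count (0.19 FPKM) in WT untreated cells. Both stimulated values were above both untreated ones, and the log2 change was 3.44 (SE 0.57, edgeR adjusted p = 0.00649).

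The 4 members in the second cluster were not called higher, while Ccl5, a neighbour there that is not a member, rose. Ccl3, an attractant of monocytes and T cells, fell to 39.55 FPKM in KO IFN-gamma and 41.44 in WT IFN-gamma cells, against 62.92 in KO untreated and 71.43 in WT untreated cells. The log2 change was -0.63 (SE 0.11), with an adjusted p of 0.0082 by edgeR and 0.0886 by DESeq2. Ccl4, a T cell and monocyte attractant next to it, had 13.48 and 14.08 FPKM in KO and WT IFN-gamma cells, against 16.08 and 19.25 FPKM in KO and WT untreated cells (edgeR log2 change -0.26, SE 0.17, adjusted p = 0.284). RefSeq's span for Ccl4 runs over Ccl3, but the counted transcript of Ccl4 shares no exonic base with another gene. Ccl6 had 152.39 and 283.84 FPKM in KO and WT IFN-gamma cells, against 127.62 and 288.68 FPKM in KO and WT untreated cells, and split by genotype rather than by stimulus (edgeR log2 change 0.21, SE 0.12, adjusted p = 0.227). Ccl9 had 9.74 and 2.31 FPKM in KO and WT IFN-gamma cells, against 13.21 and 17.84 FPKM in KO and WT untreated cells. All stimulated values of Ccl9 were below the untreated ones, but the genotypes lay far apart, and the edgeR log2 change of -1.44 (SE 0.54) had an adjusted p of 0.0959. In Ccl9, 2.0% of the counted transcript's 50-base stretches also occur in other genes.

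Off chromosome 11, Ccl22, a T cell attractant better known from IL-4 and dendritic cells, had 109 counts (5.49 FPKM) in KO IFN-gamma and 63 counts (3.15 FPKM) in WT IFN-gamma cells, against 2 counts in each untreated library. Its log2 change of 5.42 (SE 0.39, edgeR adjusted p = 0.000306) rests on those few untreated counts, and the fold of FPKM was 54.9 in KO cells (counting interval 14.7 to 454) and 31.5 in WT cells (8.17 to 260). Of the dendritic cell markers, which summed to 1.36 FPKM in KO IFN-gamma and 0.9 FPKM in WT IFN-gamma cells, against 0.83 FPKM in KO untreated and 0.31 FPKM in WT untreated cells, all 5 stayed under 1 FPKM in these libraries, and edgeR called 1 of the 2 that were tested higher with IFN-gamma. That gene, Xcr1, had 0.73 and 0.36 FPKM in KO and WT IFN-gamma cells, against 0.35 and 0.17 FPKM in KO and WT untreated cells (log2 change 1.20, edgeR adjusted p = 0.0403). Zbtb46, the other, had 0.49 and 0.45 FPKM in KO and WT IFN-gamma cells, against 0.38 and 0.04 FPKM in KO and WT untreated cells (adjusted p = 0.173). The part of dendritic cells in the Ccl22 result was not tested. Ccl24 had too few counts to be tested.

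Bone marrow-derived macrophages given IL-4 were the second comparison. Of the 10 members, all tested here, 5 rose and 1 fell by edgeR, where 12.0% of all 12879 genes rose and 9.23% fell. The members' median log2 change was 0.75, against -0.003 for all genes. DESeq2 and limma on log2(FPKM + 1) each gave an adjusted p for 7 of the 10 and called 3 higher, Ccl2, Ccl7 and Ccl9. Over all genes, DESeq2 called 667 of 11662 higher and limma 997 of 10906. A joint fit of all 8 libraries also called 3 higher, Ccl2, Ccl7 and Ccl24, where it called 608 of 13224 genes higher.

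Ccl7 had 13.5 FPKM in KO IL-4 and 15.96 in WT IL-4 cells, against 1.75 in KO untreated and 3.61 in WT untreated cells. The groups were well apart, with a log2 change of 2.51 (SE 0.18, edgeR adjusted p = 6.44e-06). Ccl2 had 23.07 FPKM in KO IL-4 and 21.77 in WT IL-4 cells, against 6.46 in KO untreated and 9.67 in WT untreated cells. Its log2 change was 1.52 (SE 0.15, edgeR adjusted p = 5.99e-05). Ccl12 had 11 and 21 counts in KO and WT IL-4 cells, against 5 and 1 counts in KO and WT untreated cells. No Ccl12 level passed 2.01 FPKM, and its log2 change of 2.42 (SE 0.67) had an adjusted p of 0.0289 by edgeR and 0.127 in the joint fit.

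Ccl8, the fourth of the first cluster, did not follow its neighbours under IL-4. It had 6.85 FPKM in KO IL-4 and 13.05 in WT IL-4 cells, against 6.09 in KO untreated and 17.43 in WT untreated cells, so that stimulated and untreated values overlapped (edgeR log2 change -0.16, SE 0.17, adjusted p = 0.553). Ccl24, the eosinophil attractant, had 25 counts in each of the IL-4 libraries (0.93 FPKM in KO and 0.96 in WT), against 5 counts in KO untreated and 1 count in WT untreated cells. It rose by a log2 change of 3.07 (SE 0.54, edgeR adjusted p = 0.0029) while staying under 1 FPKM. Ccl22 had 28 and 16 counts in KO and WT IL-4 cells, against 10 counts in each untreated library, and was not called (edgeR log2 change 1.17, SE 0.39, adjusted p = 0.059).

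Changes in the second cluster were small. Ccl9 rose by a log2 change of 0.34 (SE 0.05, edgeR adjusted p = 0.000676), from its place as the leading member, and had an adjusted p of 0.683 in the joint fit. Ccl3 had 33.4 and 38.85 FPKM in KO and WT IL-4 cells, against 49.17 and 45.7 FPKM in KO and WT untreated cells, without overlap. Its log2 change was -0.36 (SE 0.09), with an adjusted p of 0.0185 by edgeR and 0.24 by DESeq2. Ccl4, between 27.32 and 31.34 FPKM, and Ccl6, between 75.65 and 92.74 FPKM, were not called, each with an edgeR log2 change of 0.08 (SE 0.09 for Ccl4 and 0.05 for Ccl6).

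**Figure D2:**
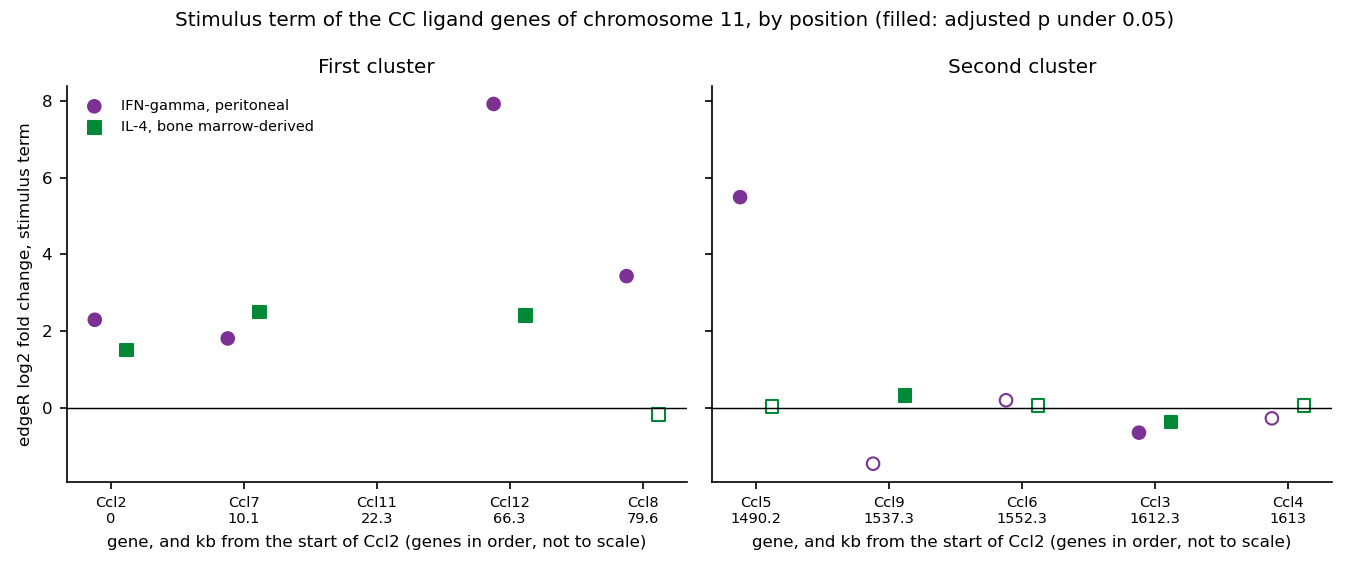
Log2 fold change of the stimulus term (vertical axes, edgeR) for the CC ligand genes of chromosome 11 in the order in which they lie, with the distance in kb from the start of Ccl2 under each name; circles are IFN-gamma in peritoneal cells, squares are IL-4 in bone marrow-derived cells, and filled symbols have an adjusted p under 0.05. The 4 members of the first cluster rose with IFN-gamma and none of the 4 members of the second did, while Ccl5, a neighbour that is not a member, rose by 5.49; the height of Ccl12 (7.91) depends on the prior count, because both untreated libraries have no count, and Ccl11 had too few counts to be tested.

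The plot of the stimulus term by position sets the clusters side by side. Summed FPKM of Ccl2, Ccl7, Ccl8 and Ccl12, divided by that of Ccl3, Ccl4, Ccl6 and Ccl9, was 0.698 in KO IFN-gamma and 0.213 in WT IFN-gamma, against 0.106 in KO untreated and 0.0539 in WT untreated peritoneal cells. In bone marrow-derived cells the ratio was 0.174 in KO IL-4 and 0.189 in WT IL-4, against 0.0607 in KO untreated and 0.117 in WT untreated cells. Stimulated libraries were above untreated ones in both cell types. The separation was not that of the clusters as wholes, since Ccl5, which draws T cells and lies at the edge of the second cluster, had 86.48 and 10.97 FPKM in KO and WT IFN-gamma cells, against 1.16 and 1.01 FPKM in KO and WT untreated cells (edgeR log2 change 5.49, SE 0.46, adjusted p = 0.000544).

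The next comparison, and the one the series is built around, is KO against WT. In peritoneal macrophages edgeR called none of the 9 members tested, where 0.0249% of all genes were called higher and 0.0083% lower. At an unadjusted p under 0.05 there were 4 members, Ccl6 below and Ccl2, Ccl7 and Ccl22 above, and 1680 of all 12052 genes. DESeq2 and the joint fit each called 1 member lower, Ccl6, where they called 23 of 6311 and 51 of 13224 genes lower. The members' median log2 difference was 0.53, against 0.008 for all genes.

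Ccl6 was lower in KO than in WT at both states, at 152.39 FPKM in KO and 283.84 in WT cells with IFN-gamma (fold 0.537, 95% counting interval 0.51 to 0.564), and at 127.62 FPKM in KO and 288.68 in WT cells without it (fold 0.442, 0.419 to 0.466). Its genotype estimate was -1.05 on the log2 scale (SE 0.12), with an adjusted p of 0.0841 by edgeR, 1.39e-05 by DESeq2, 0.0155 in the joint fit and 0.16 by limma. The 7 macrophage markers summed to 6072.23 FPKM in KO and 7425.68 in WT cells with IFN-gamma, and to 8398.92 FPKM in KO and 10095.76 in WT cells without it. Lyz2, a lysozyme gene, made up most of these sums, at 4277.32 FPKM in KO and 5384.67 in WT cells with IFN-gamma, and at 5529.22 FPKM in KO and 7310.65 in WT cells without it. The other markers did not all lie that way. With IFN-gamma only Mertk was higher in KO, at 84.98 FPKM in KO and 55.84 in WT cells. Csf1r (65.4 FPKM in KO and 118.3 in WT), Cd68 (1549.03 and 1710.97) and Itgam (38.44 and 44.66) were lower in KO there. Without IFN-gamma they differed little. Csf1r was at 116.79 FPKM in KO and 110.41 in WT cells, Cd68 at 2625.67 and 2536.32, and Itgam at 66.48 and 66.35. Fcgr1 and Adgre1, like Lyz2, were lower in KO in both states, and Mertk was higher in both. Fcgr1 had 25.22 FPKM in KO and 62.34 in WT cells with IFN-gamma, and 1.94 and 3.95 FPKM without it. Adgre1 had 31.84 and 48.9 FPKM with IFN-gamma, and 34.14 and 46.1 FPKM without it. The main edgeR fit called none of the 7 markers between genotypes (median log2 difference -0.38), but DESeq2 called Fcgr1 lower and the joint fit Adgre1. The part of these markers in the Ccl6 result was not tested. Without IFN-gamma, Ccl6 was the member at least 2-fold lower on the scale of log2(FPKM + 1), where 0.422% of 10670 genes were, and no member was at least 2-fold higher (0.356%). For Ccl2 the untreated libraries were level, at 17.18 FPKM in KO and 17.25 in WT cells (fold 0.996, 0.786 to 1.26).

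With IFN-gamma the order changed. Ccl2, Ccl7 and Ccl9 were at least 2-fold higher in KO than in WT cells, where 1.56% of all genes were, and no member was at least 2-fold lower (0.89%). The fold was 2.18 for Ccl2 (counting interval 1.95 to 2.44), 2.7 for Ccl7 (2.1 to 3.51) and 4.22 for Ccl9 (3.29 to 5.49). Ccl22 was 1.74-fold higher (1.27 to 2.42), while Ccl3, Ccl4, Ccl8 and Ccl12 had intervals that include 1. These ratios set 1 library against 1, so there is no test of them, and the intervals cover counting error only.

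Each genotype's own response shows the same libraries from the other side. In KO peritoneal cells 5 members, Ccl2, Ccl7, Ccl8, Ccl12 and Ccl22, were at least 2-fold higher with IFN-gamma (7.27% of all genes) and none was lower (6.6%). In WT cells 4 were, the same without Ccl7, which lay just under the limit at 0.96 on the log2 scale (5.94% of all genes), and 1 member, Ccl9, was lower (4.56%). The median of all genes was -0.107 in the KO pair and -0.046 in the WT pair, so ratios in KO cells are read against a slightly lower centre. The KO minus WT difference in log2 response was 2.11 for Ccl9, 1.11 for Ccl2 and 1.00 for Ccl7, 3 members at 2-fold or more where 1.51% of genes were, against an all-gene median of -0.063. Ccl8 was the 1 member on the other side, at -1.01 (0.834% of genes), on 5 counts in KO untreated and 1 count in WT untreated cells, and it fell short of 2-fold with TMM-scaled CPM.

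On the log2(FPKM + 1) scale Ccl9 had the largest difference in response of the 10 members. Its fold with IFN-gamma was 0.737 in KO cells (counting interval 0.635 to 0.852) and 0.129 in WT cells (0.1 to 0.164), so that 1 library, WT IFN-gamma with 2.31 FPKM, decides the difference. As plain folds of FPKM the responses of Ccl8, 5.55 in KO cells (2.13 to 18.5) and 35.1 in WT cells (5.92 to 1430), lay at least as far apart, on 5 and 1 untreated counts. For Ccl2 the fold was 6.73 in KO cells (5.66 to 8.06) and 3.08 in WT cells (2.55 to 3.73). For Ccl7 it was 4.45 in KO cells (3.27 to 6.16) and 2.18 in WT cells (1.47 to 3.29). The interaction of genotype and stimulus has no residual degree of freedom with 1 library per group, so none of these differences could be tested.

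**Figure D3:**
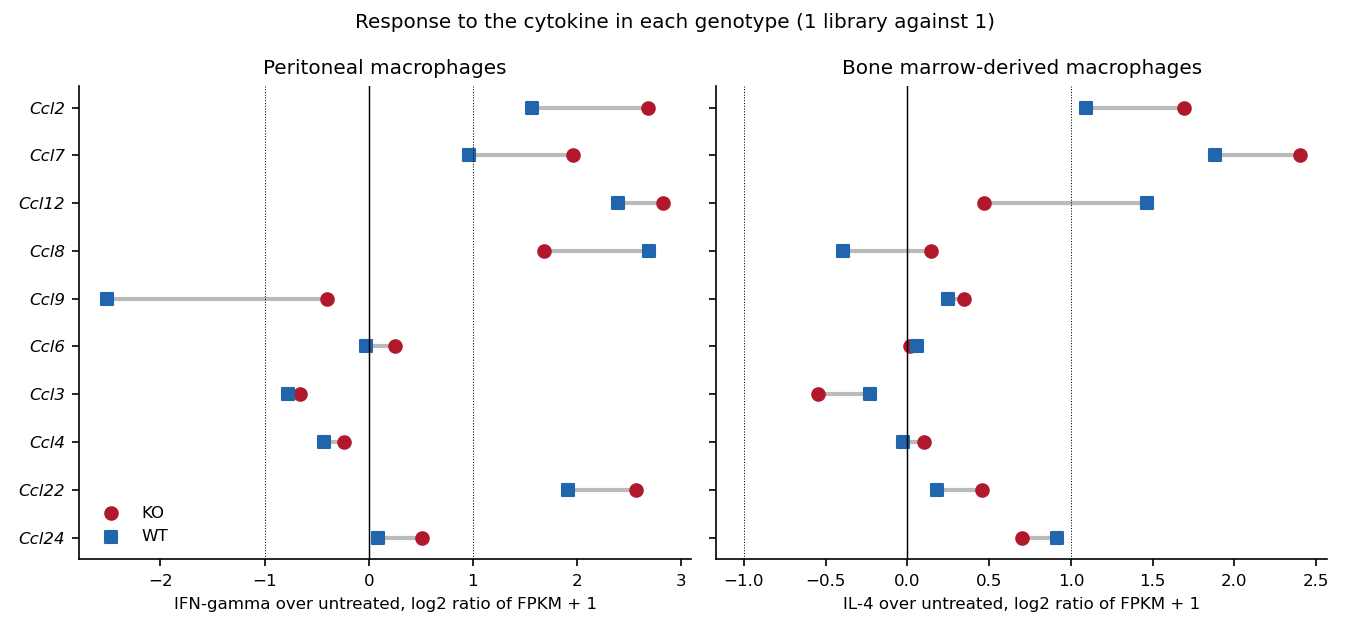
Log2 ratio of FPKM + 1, stimulated over untreated (horizontal axes), for each of the 10 genes in KO (circles) and WT (squares), in peritoneal cells given IFN-gamma at the left and bone marrow-derived cells given IL-4 at the right; each symbol is 1 library against 1, with no error between cultures, and dotted lines mark a 2-fold change. In peritoneal cells the symbols of Ccl9, Ccl2 and Ccl7 lie furthest apart toward the KO side, by 2.11, 1.11 and 1.00, and those of Ccl8 lie 1.01 apart toward the WT side.

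In bone marrow-derived macrophages edgeR called 2 of the 10 members lower in KO than in WT and none higher, where 3.68% of all genes were called lower and 1.51% higher. The members' median log2 difference was -0.14, against 0 for all genes. DESeq2, which adjusted 5 of the members, and the joint fit called none. limma called Ccl8 lower, where it called 182 of 10906 genes lower.

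Ccl8 had 6.85 FPKM in KO and 13.05 in WT cells with IL-4 (fold 0.525, counting interval 0.388 to 0.706), and 6.09 FPKM in KO and 17.43 in WT cells without it (fold 0.349, 0.258 to 0.468). Both KO libraries were below both WT libraries, and the log2 difference was -1.23 (SE 0.17), with an adjusted p of 0.00304 by edgeR, 0.0165 by limma and 0.0824 in the joint fit. Ccl6 fell by 0.25 on the log2 scale (SE 0.05, edgeR adjusted p = 0.0194), with 76.61 FPKM in KO and 92.74 in WT cells with IL-4, and 75.65 FPKM in KO and 89.09 in WT cells without it. The adjusted p of Ccl6 was 0.306 by DESeq2 and 0.0591 by limma. In untreated cells Ccl2 and Ccl7 were also lower in KO, at 6.46 FPKM in KO and 9.67 in WT cells for Ccl2 (fold 0.668, 0.518 to 0.859) and at 1.75 FPKM in KO and 3.61 in WT cells for Ccl7 (fold 0.485, 0.31 to 0.745). With IL-4 the interval of Ccl2 included 1 (0.914 to 1.23), and the edgeR genotype term of neither gene was called (adjusted p = 0.668 for Ccl2 and 0.204 for Ccl7), although without the filter on low counts Ccl7 was called lower (adjusted p = 0.0481).

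Markers of another cell type moved with genotype in the same libraries. The 8 markers of fibroblasts and mesothelium summed to 172.38 FPKM in KO IL-4 and 354.05 in WT IL-4 cells, and to 200.52 FPKM in KO untreated and 376.05 in WT untreated cells. Of the 5 that were tested, edgeR called 4 lower in KO, where 3.68% of all genes were called lower. The 4 were the collagen genes Col1a1 (log2 difference -1.01), Col1a2 (-0.91) and Col3a1 (-1.13) and the receptor gene Pdgfra (-0.60). Their part in the Ccl8 result was not tested. The same markers summed to 89.86 FPKM in KO IFN-gamma and 114.36 in WT IFN-gamma cells, and to 125.48 FPKM in KO untreated and 135.88 in WT untreated peritoneal cells.

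The 2-fold counts were small in bone marrow-derived pairs. They cover the 7 members that averaged 1 FPKM or more there, so Ccl12, Ccl22 and Ccl24 are left out. In untreated cells Ccl8 was the member at least 2-fold lower in KO (0.248% of 10906 genes), with none higher (0.156%), and with IL-4 no member passed 2-fold either way (0.385% of genes higher and 0.257% lower). Ccl2 and Ccl7 were at least 2-fold higher with IL-4 in KO cells and again in WT cells (1.27% of genes in each genotype), and none was lower (0.339% in KO and 0.449% in WT). Without that filter Ccl12 was also at least 2-fold higher with IL-4 in WT cells. No response of these 7 members differed 2-fold or more between the genotypes, where 0.413% of genes did toward KO and 0.275% toward WT. Of those left out, Ccl12 had a KO minus WT difference of -0.997, on few counts. With a pseudocount of 0.1 FPKM it was -2.473 for Ccl12 and -1.092 for Ccl24.

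**Figure D4:**
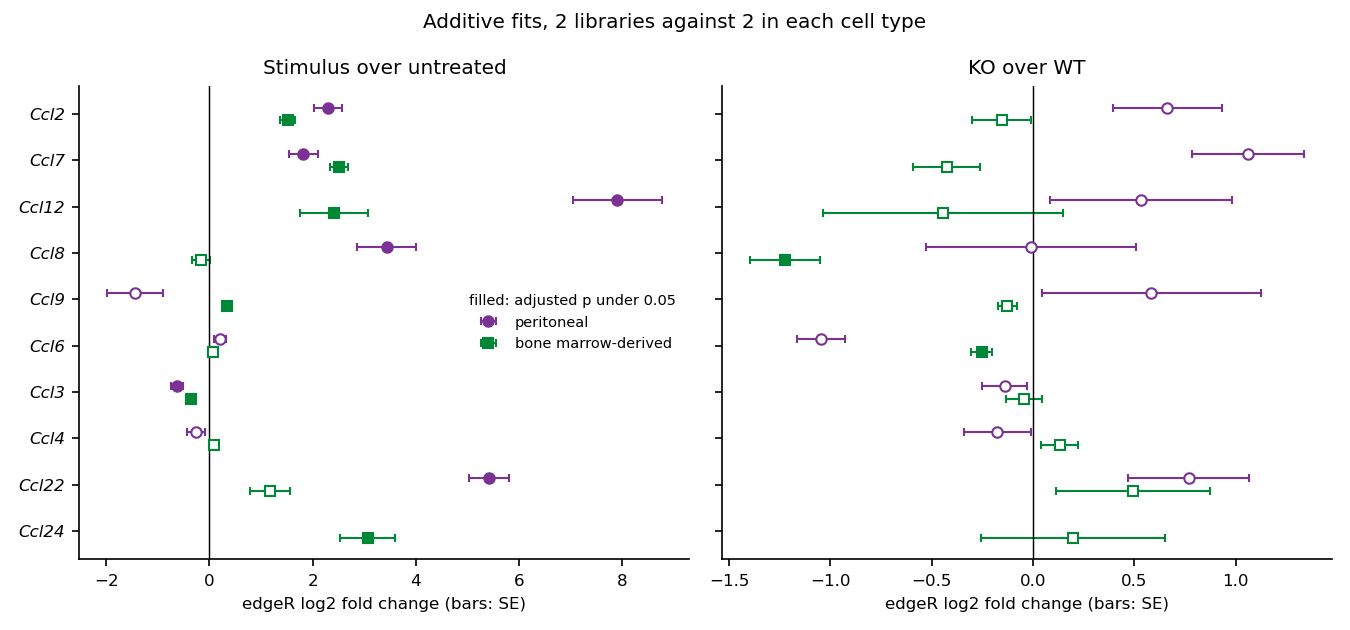
Log2 fold changes with their SE (horizontal axes) from the additive edgeR fits, stimulus over untreated at the left and KO over WT at the right, for each gene in peritoneal cells (circles) and bone marrow-derived cells (squares); filled symbols have an adjusted p under 0.05. In the genotype panel the filled symbols are Ccl8 (-1.23) and Ccl6 (-0.25) in bone marrow-derived cells, and Ccl6 in peritoneal cells (-1.05) has an adjusted p of 0.0841; the stimulus estimate of Ccl12 in peritoneal cells (7.91) depends on the prior count.

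Untreated peritoneal and bone marrow-derived macrophages were compared in another additive fit, over genes listed in both kinds of table. Cell type, thioglycollate, culture and any difference in sequencing cannot be told apart in this contrast. All 7 members with enough counts were called by edgeR, 4 higher and 3 lower in peritoneal cells, where 27.4% of 12830 genes were called in each direction. The members' median was 0.70, against -0.008 for all genes. Higher in peritoneal cells were Ccl6 (log2 difference 1.43, SE 0.18), Ccl2 (1.31, SE 0.19), Ccl7 (1.02, SE 0.35) and Ccl3 (0.70, SE 0.12). Lower were Ccl8 (-4.05, SE 0.55), Ccl9 (-2.43, SE 0.13) and Ccl4 (-0.49, SE 0.17). DESeq2 lost Ccl7 (adjusted p = 0.191) and Ccl4 (adjusted p = 0.214).

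Ccl8 shows that contrast most plainly, with 5 counts in KO and 1 count in WT untreated peritoneal cells (0.94 and 0.19 FPKM), against 6.09 and 17.43 FPKM in KO and WT untreated bone marrow-derived cells. Ccl9 had 13.21 and 17.84 FPKM in KO and WT untreated peritoneal cells, against 89.42 and 101.11 FPKM in KO and WT untreated bone marrow-derived cells. Its partner in the second cluster, Ccl6, lay the other way in the same libraries. Neighbouring genes thus differed in direction.

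Receptors of CC chemokines were counted from a list of 10 genes, most of them too low to test. With IFN-gamma edgeR called 17.2% of all genes higher in peritoneal cells and 14.9% lower (median log2 change -0.012). Of the 3 receptors tested there, 2 were called higher and none was called lower (median 1.06). They were Ccr2, the receptor of Ccl2, Ccl7 and Ccl12 (log2 change 2.90, edgeR adjusted p = 0.00717), on levels of at most 1.56 FPKM, and Ccrl2, an atypical receptor, which had 213.11 and 117.98 FPKM in KO and WT IFN-gamma cells, against 83.83 and 74.08 FPKM in KO and WT untreated cells (edgeR adjusted p = 0.00817). Ccr1, the other tested, had 3.65 and 13.35 FPKM in KO and WT IFN-gamma cells, against 19.28 and 15.19 FPKM in KO and WT untreated cells. Its fold with IFN-gamma was 0.189 in KO cells (counting interval 0.154 to 0.232) and 0.879 in WT cells (0.768 to 1.0). The additive term averages these unequal responses, and their difference was not tested. With IL-4 edgeR called 12.0% of all genes higher in bone marrow-derived cells and 9.23% lower (median -0.003). Of the 4 receptors tested there, 2 rose, Ccr1 and Ccr3, and 2 fell, Ccr2 and Ccrl2 (median 0.28), while DESeq2 called none. Between genotypes, 2 of the 4 were called lower in KO bone marrow-derived cells, where 3.68% of all genes were called lower and 1.51% higher. They were Ccr1 (log2 difference -0.83, edgeR adjusted p = 0.033) and Ccr3 (-0.97, adjusted p = 0.0465). The list median was -0.38, against 0 for all genes, and DESeq2 and limma called none.

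The next 2 lists are read against the same shares of all genes. These were 17.2% higher and 14.9% lower with IFN-gamma (median -0.012), and 12.0% higher and 9.23% lower with IL-4 (median -0.003). Of 10 other CC ligands, 4 could be tested in peritoneal cells and 2 rose with IFN-gamma, Ccl5 and Ccl28, with a median of 0.28. In bone marrow-derived cells 3 could be tested and none was called by edgeR with IL-4, where the median was 0.12. Among 14 regulators that are known to act on chemokine genes, 10 rose and 2 fell with IFN-gamma in peritoneal cells (median 1.84). Irf1 had 660.46 and 580.16 FPKM in KO and WT IFN-gamma cells, against 13.06 and 12.73 FPKM in KO and WT untreated cells. Its KO over WT fold was 1.14 with IFN-gamma (counting interval 1.11 to 1.16) and 1.03 without it (0.871 to 1.21). Not all regulators lay so close with IFN-gamma, with a KO over WT fold of 2.62 for Klf4 and 0.649 for Pparg. With IL-4, 6 regulators rose and 2 fell in bone marrow-derived cells, and the rise was largest for Irf4, a known IL-4 target (log2 change 4.10, SE 0.17, edgeR adjusted p = 1.94e-07). The median over the 14 with IL-4 was -0.02.

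For the 7 members that averaged 1 FPKM or more in the 4 libraries of each cell type, the genes of most similar pattern were sought among 10073 genes by the root-mean-square difference of log2(FPKM + 1) over the 8 libraries, each cell type centred on its own mean. The closest to Ccl2 were F10, H2-Q6 and St7, with differences of 0.24, 0.30 and 0.32. The closest to Ccl7 were Fchsd2, Cish and Ccl2, at 0.23, 0.29 and 0.38, which includes its neighbour on the chromosome. For Ccl8 the closest were Serping1, Snora34 and Dnaaf3 (0.25, 0.34 and 0.38), and for Ccl6 they were Scd2, Ucp2 and Cd5l (0.16, 0.16 and 0.17). Ccl9 had Rhoj, Ccl27a and AI507597 (0.32, 0.33 and 0.34). Ccl3 had Spsb1, Bend4 and Tsku (0.05, 0.06 and 0.07), and Ccl4 had Fkbp3, 3110040N11Rik and Ap5b1 (0.03, 0.04 and 0.04). The root-mean-square deviation of the 2 genes themselves was 0.30 for Ccl3 and 0.14 for Ccl4, against 0.95 for Ccl2 and 1.00 for Ccl7. These are descriptions over libraries that share a treatment and a genotype.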

How the data were processed

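RNA of 8 mouse macrophage cultures was sequenced. Per the submitters' processing notes the authors used Bowtie2 2.2.5, RSEM and mm10; the version of RSEM is not given in the sources used. The deposited tables give an expected count, an FPKM value and a transcript length per gene; 70.1% to 77.8% of expected counts were whole within 0.005. Genes absent from a library's table were set to 0 there. Positions come from RefSeq GRCm38.p6.

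Rounded expected counts were fitted with edgeR 4.0.16 in R 4.3.3 (TMM, filterByExpr, additive terms, called at an adjusted p under 0.05). The SE is the log2 change over the square root of F. Alternatives were DESeq2 1.42.0, limma 3.58.1 on log2(FPKM + 1) for genes averaging at least 1 FPKM, RLE factors, no filter and a joint fit. Pairs of libraries used log2(FPKM + 1), the same 1 FPKM minimum, a 2-fold limit and exact 95% intervals. Genes near 1 FPKM had medians of 29.0 to 31.0 counts in peritoneal and 48.5 to 60.0 in bone marrow-derived libraries. Promoter windows were aligned globally with Biopython 1.88. Fits were tested on simulated data with additive changes in genes with many counts. Changes at low counts and unequal responses of the genotypes were not simulated. The simulated spread was smaller than the common spread of the peritoneal fit. All members were named, as were list genes that passed a test and the 3 genes most alike. Members and lists were chosen with earlier results of these data known. Some listed genes and a motif are not reported here. Other computing used Python 3.11.15.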

Additional observations from a re-analysis of the deposited data

Results flagged for a closer look

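Among the receptors and regulators counted beside the ligands, Klf4, a factor of alternative activation, responded to IFN-gamma in opposite directions in KO and WT peritoneal cells, each beyond its counting interval, with a log2 response of 0.77 in KO and -0.68 in WT cells. It had 7.17 FPKM in KO IFN-gamma and 2.74 in WT IFN-gamma cells, against 3.78 in KO untreated and 5.0 in WT untreated cells. The difference between the genotypes was not tested.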

How the results depend on the processing

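No paired analysis was possible because each group holds 1 library and the labels give no replicate numbers that groups share; for the same reason no library could be left out of its group. Of 199 member values refitted, 182 kept direction and side of the threshold, 12 lost the call, 4 gained it and 1 reversed: the peritoneal genotype term of Ccl8, -0.01 with edgeR, was 0.20 with limma (adjusted p = 0.775). Of 200 alternative values from pairs and responses, 179 counted as the same and 21 as moved. For pairs, the same meant lying inside the counting interval of the ratio of counts. For differences in response it meant lying within a fixed log2 distance of the main value, with no interval. With DESeq2, genes called fell to 1251 higher and 837 lower for IFN-gamma (0 members lower), 667 and 404 for IL-4 (3 members higher, 0 lower), 47 and 114 for the genotype in bone marrow-derived cells (0 members lower), and 2192 and 2273 for cell type. The joint fit gave 608 higher and 406 lower for IL-4 (3 members higher, 0 lower) and 21 and 125 for the bone marrow-derived genotype (0 members lower). limma gave 997 higher for IL-4 (3 members), 63 and 182 for the bone marrow-derived genotype (1 member lower) and 2044 higher for cell type. Without the filter that genotype term gave 527 higher and 726 lower (3 members, Ccl7 joining Ccl6 and Ccl8). The peritoneal genotype term, 3 higher and 1 lower with edgeR, gave 12 and 5 with RLE factors, 26 and 26 without the filter, 18 and 23 with DESeq2, 0 and 0 with limma, and 26 and 51 in the joint fit, with 1 member lower (Ccl6) without the filter, with DESeq2 and in the joint fit. With a pseudocount of 0.1 FPKM, untreated KO over WT had 1 member higher in peritoneal cells and 2 lower in bone marrow-derived cells, and with TMM-scaled CPM 0 members had a lower KO response to IFN-gamma. The cause of these shifts was not tested. Members under 1 FPKM (Ccl8, Ccl12, Ccl22 and Ccl24 in some libraries) rest on few counts, and 1 library per group gives no error between cultures.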

Other observations

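Ccr2 was at 0.1 FPKM in KO and 0.26 in WT untreated peritoneal cells, against 22.01 and 21.01 FPKM in KO and WT untreated bone marrow-derived cells (edgeR log2 difference -6.70, SE 0.24, adjusted p = 1.07e-11), while its ligand genes Ccl2 and Ccl7, tested in the same fit, were higher in peritoneal cells. Ccr1 (3.94, SE 0.25) and Ccrl2 (3.43, SE 0.12) were higher in peritoneal cells. Ccl17, which like Ccl22 acts on CCR4, was at 0 in 7 of the 8 libraries and at 0.18 FPKM in KO IL-4 bone marrow-derived cells.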
